A study of Mus musculus with 15 samples.

Results

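The HindIII sites within about 1 Mb of the Pparg bait were followed in 4C-seq, a circular form of chromosome conformation capture that counts by sequencing how often each site was ligated to the bait. A site belonged to the set if it lay from 114.4 to 116.4 Mb of chromosome 6 (mm9) and more than 10 kb from the bait site at chr6:115369246-115369251. The bait site was taken as the chromosome 6 site with the most reads in a Pparg library, and the rule otherwise used positions alone. It left 664 of the 823355 HindIII sites of the deposited tables, or 664 of the 47607 on chromosome 6. On the low-coordinate side 342 sites reached 968 kb from the bait, and on the high-coordinate side 322 sites reached 1029 kb. The other 5 sites of the stretch lay in the 10-kb zone, where reads include undigested and self-ligated bait, and were left out.

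Contacts were read in 1 library of a B lymphocyte cell line and in 3T3-L1 cells, a mouse preadipocyte line that becomes adipocytes under hormones, with 2 libraries on each of days 0, 1, 2 and 6. Day 0 cells were preadipocytes 2 days past confluence, which then received dexamethasone, 3-isobutyl-1-methylxanthine and insulin in serum, and day 6 cells were labelled mature adipocytes. All samples were fixed with 2% formaldehyde, cut with HindIII and then DpnII. Neither line carried a stated genetic change. The labels do not name the B cell line, and its culture conditions were not given in the sources used here. They also do not say whether the replicates of a day came from separate cultures. The p-values therefore cover the spread among these libraries, which may be technical.

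Pparg encodes peroxisome proliferator-activated receptor gamma, a nuclear receptor needed for adipocyte differentiation. It is transcribed from alternative promoters, and the isoform made from one of them is largely restricted to adipocytes. In a 4C profile contacts fall off steeply with distance from the bait, so that local departures from the fall-off, rather than the fall-off itself, tell one site from another. In the gene order of the GRCm38.p6 annotation, Timp4, an inhibitor of matrix metalloproteinases, is listed directly below Pparg, on the low-coordinate side. Below it the order lists Syn2, a synaptic vesicle protein, Tamm41, a mitochondrial enzyme of cardiolipin synthesis, and Vgll4, a cofactor of TEAD factors. Atg7, an enzyme of autophagy, and Hrh1, a histamine receptor, follow. The order holds ranks and no gene ends, so it does not tell which gene lies nearest to Pparg. Among the genes on the high-coordinate side are Cand2, Rpl32, a ribosomal protein, Efcab12 and Mbd4, a DNA glycosylase. That annotation is of another build than the tables, so windows are given by mm9 position and not by the genes inside them.

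A promoter has a site of its own in a 4C table only where its sequence holds the HindIII letters AAGCTT, so the promoters of the bait gene are shown with HindIII (AAGCTT) and DpnII (GATC) letters in capitals. Both motifs read the same on either strand and do not overlap each other. The sequences are RefSeq's for GRCm38.p6, 250 bases before to 50 bases after each annotated start, 5′ to 3′, and their coordinates cannot be set against the mm9 positions of this text. Pparg has 3 annotated starts there on the plus strand, and the first and the third lie 60.9 kb apart. The next to last gene named above, Efcab12 on the minus strand, is shown as a promoter that does hold a HindIII site.
Pparg start 1, chr6:115360894-115361193: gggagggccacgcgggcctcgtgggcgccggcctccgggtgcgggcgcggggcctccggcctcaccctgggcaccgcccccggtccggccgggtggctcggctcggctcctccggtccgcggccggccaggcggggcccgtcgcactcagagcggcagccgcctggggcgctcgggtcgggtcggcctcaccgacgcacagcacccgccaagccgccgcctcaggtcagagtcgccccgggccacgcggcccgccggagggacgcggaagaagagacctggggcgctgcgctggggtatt
Pparg start 2, chr6:115362099-115362398: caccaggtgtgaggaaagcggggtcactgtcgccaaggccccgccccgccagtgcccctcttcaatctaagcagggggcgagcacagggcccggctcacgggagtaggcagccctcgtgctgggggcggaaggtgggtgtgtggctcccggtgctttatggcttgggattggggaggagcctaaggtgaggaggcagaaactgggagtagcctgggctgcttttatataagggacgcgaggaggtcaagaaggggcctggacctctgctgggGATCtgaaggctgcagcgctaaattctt
Pparg start 3, chr6:115421816-115422115: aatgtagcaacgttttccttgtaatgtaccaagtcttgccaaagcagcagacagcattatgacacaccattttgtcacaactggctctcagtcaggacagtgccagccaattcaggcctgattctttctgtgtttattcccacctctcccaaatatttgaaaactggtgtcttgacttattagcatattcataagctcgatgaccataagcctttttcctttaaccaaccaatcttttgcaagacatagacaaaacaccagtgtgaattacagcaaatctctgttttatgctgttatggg
Efcab12, chr6:115838363-115838662: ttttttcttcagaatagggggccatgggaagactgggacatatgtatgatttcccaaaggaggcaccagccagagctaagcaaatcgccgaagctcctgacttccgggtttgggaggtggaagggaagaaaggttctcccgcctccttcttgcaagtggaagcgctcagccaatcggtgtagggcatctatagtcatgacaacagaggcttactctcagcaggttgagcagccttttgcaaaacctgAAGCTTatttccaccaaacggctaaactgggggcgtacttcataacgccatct
None of the 3 Pparg windows held AAGCTT, and 1 held GATC. Of 32851 such windows over all genes of the table, 7.45% held AAGCTT and 48.0% held GATC. Contacts of a promoter without a HindIII site were thus read only at the sites on either side of it. Which Pparg start lies nearest the bait was not determined, since no mm9 genome was used here.

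The 664 sites held 56731 reads in the B cell library and 17827 to 1159566 reads in the 3T3-L1 libraries. Replicate 1 was deeper than replicate 2 on every day. The bait site itself took 14.0% of all reads in B cells and 5.83% to 61.4% in 3T3-L1 libraries, with both day 6 libraries highest, at 52.0% and 61.4%. Values below are shares of the locus reads, meaning a site's or window's reads over the reads of all 664 sites in the same library. They show how contacts were distributed inside the locus and not whether the locus as a whole gained or lost contacts. PCR copies of one molecule cannot be recognised in these tables, so the Wilson intervals given for the single B cell library cover counting error only.

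Of the 664 sites, 388 were read in all 9 Pparg libraries, 199 in some of them, and 77 in none. Those 77 had no read in any of the 27 libraries of the 3 baits either. Unread sites made up 11.6% of the locus and 27.9% of the sites of chromosome 6. Of the 77, 65 lay on the low-coordinate side, and 35 of these followed each other without a break from 114501158 to 114584812 bp, an 83.7-kb stretch. Chromosome 6 held 3 unread runs at least that long, the longest of 67 sites. Outside that run the unread sites had a nearest HindIII neighbour at a median of 2336 bp, while sites read in all 9 libraries had one at 1105 bp. The longer of the 2 fragments beside a site had a median of 2430 bp for the unread sites and 3984 bp for those read in all 9.

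Contacts were concentrated in few sites. Between 32 and 37 sites held 50% of the locus reads in each 3T3-L1 library, and 33 did in B cells. The leading site in both lines lay 11.5 kb below the bait at chr6:115357781-115357786. It took 7.56% of locus reads in B cells and from 3.54% to 4.67% in the 3T3-L1 libraries, with a mean of 4.15% ± 0.444 (SD, n = 8). The site at chr6:115384614-115384619, 15.4 kb above the bait, came next, with 6.40% in B cells and 2.80% to 4.69% in 3T3-L1 libraries. Both were above every 3T3-L1 library in B cells. Their 2 shares together made 14.0% in B cells against a 3T3-L1 mean of 7.68% ± 0.998 (SD, n = 8).

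Farther than 50 kb from the bait, the 5 sites with the highest 3T3-L1 mean were all on the low-coordinate side, and 3 of them lay between 53 and 62 kb from the bait. The highest, at chr6:115315026-115315031 and 54.2 kb below the bait, took 2.09% in B cells against a 3T3-L1 mean of 2.52% ± 0.374 (SD, n = 8). Its neighbour at chr6:115315664-115315669 took 1.03% in B cells, below all 8 3T3-L1 libraries, which ranged from 1.14% to 2.10%. The site at chr6:115307558-115307563 took 0.966% in B cells against a 3T3-L1 mean of 1.44% ± 0.433 (SD, n = 8), and there the B cell value was inside the range. The other 2 lay about 150 kb below the bait. At chr6:115225247-115225252 the share was 0.894% in B cells and 1.49% to 2.02% in 3T3-L1 libraries, and at chr6:115216511-115216516 it was 0.807% in B cells and 1.29% to 2.25% in 3T3-L1 libraries. Of the 5 highest sites over 50 kb away in B cells, 4 lay on the high-coordinate side, from 55.5 to 85.4 kb above the bait, and the first was again the site 54.2 kb below it.

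**Figure D1:**
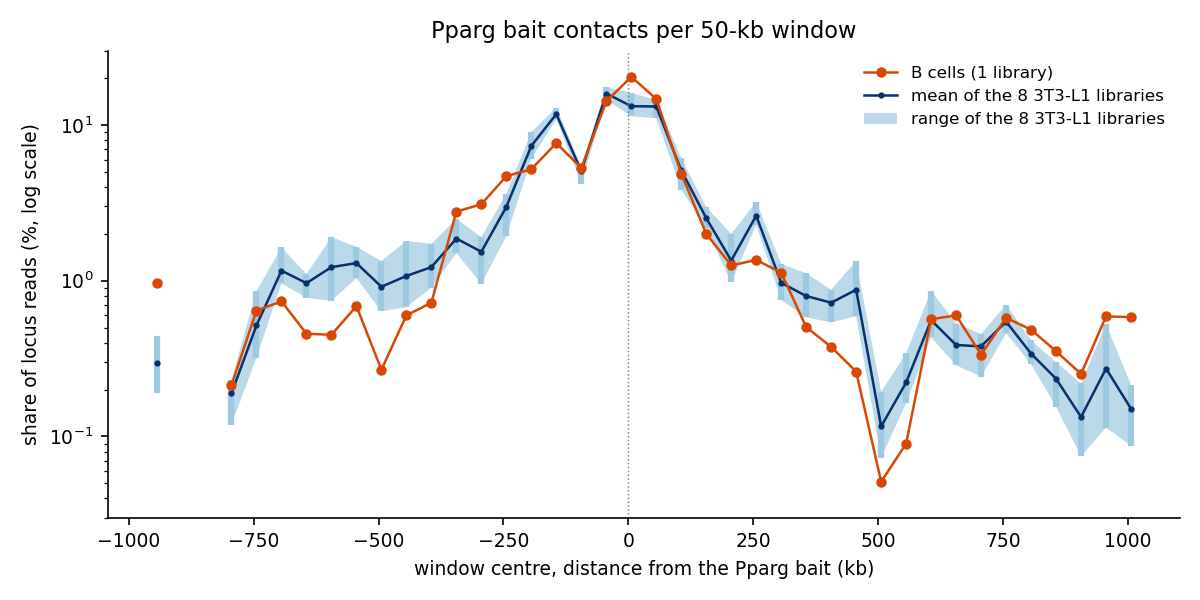
Share of locus reads per 50-kb window (vertical axis, percent, log scale) against the distance of the window's centre from the Pparg bait (horizontal axis, kb), with the low-coordinate side on the left. Orange points are the 1 B cell library, the dark line is the mean of the 8 3T3-L1 libraries and the band their range. The 2 windows with almost no reads on the far left are not drawn. The B cell library lies above the band at the bait and at about 300 kb below it, and beneath the band from about 400 to 700 kb below it and from about 350 to 550 kb above it.

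The fall-off was steep on both sides. On log-log axes the share per site fell with distance with a slope of -1.22 in B cells against a 3T3-L1 mean of -1.18 ± 0.0716 (SD, n = 8) on the low-coordinate side. On the high-coordinate side the slope was -1.18 in B cells, steeper than in all 8 3T3-L1 libraries, which averaged -1.03 ± 0.0482 (SD, n = 8). The low-coordinate side held more than 50% of the reads in each of the 9 libraries. It took 58.8% in B cells (95% Wilson interval 58.4 to 59.2) and 61.6% ± 1.40 (SD, n = 8) in 3T3-L1 libraries. The difference was -2.82 percentage points (two-sided exact permutation test, p = 0.222, the smallest that 1 against 8 libraries allows). It was -2.91 with a zone of 20 kb and -1.39 by counts of captured sites (exact permutation p = 0.222 each). Capping a site's reads at the 95th percentile reduced it to -0.403 (exact permutation p = 0.444). B cells then stood at 59.2%, above day 0 replicate 1 at 58.6%.

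The excess on the low-coordinate side was largest between 100 and 200 kb from the bait. That bin took 15.5% of locus reads in B cells against a 3T3-L1 mean of 20.1% ± 1.21 (SD, n = 8) from its 40 sites. The same distances on the high-coordinate side took 3.85% in B cells against a 3T3-L1 mean of 4.64% ± 0.368 (SD, n = 8) from 15 sites. Per site the low-coordinate bin still had more, with 0.386% a site in B cells and 0.504% in 3T3-L1 libraries, while the high-coordinate bin had 0.257% a site in B cells and 0.310% in 3T3-L1 libraries. The adjoining windows at 115.2 to 115.25 Mb and 115.15 to 115.2 Mb made this shoulder. They were also the 2 highest windows wholly over 100 kb from the bait in B cells and in 3T3-L1 libraries. The window at 115.2 Mb took 7.66% in B cells against a 3T3-L1 mean of 11.8% ± 0.697 (SD, n = 8), and that at 115.15 Mb took 5.20% in B cells against a 3T3-L1 mean of 7.35% ± 0.979 (SD, n = 8). The window at 115.25 to 115.3 Mb, which lies nearer to the bait, took 5.30% in B cells against a 3T3-L1 mean of 5.04% ± 0.369 (SD, n = 8). In B cells that was below the window at 115.2 Mb but not below the one at 115.15 Mb, and in the 3T3-L1 means it was below both. The next highest far windows were at 115.1, 115.05 and 115.0 Mb in B cells, all on the low-coordinate side. In 3T3-L1 libraries they were at 115.1, 115.6 and 115.5 Mb.

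**Figure D2:**
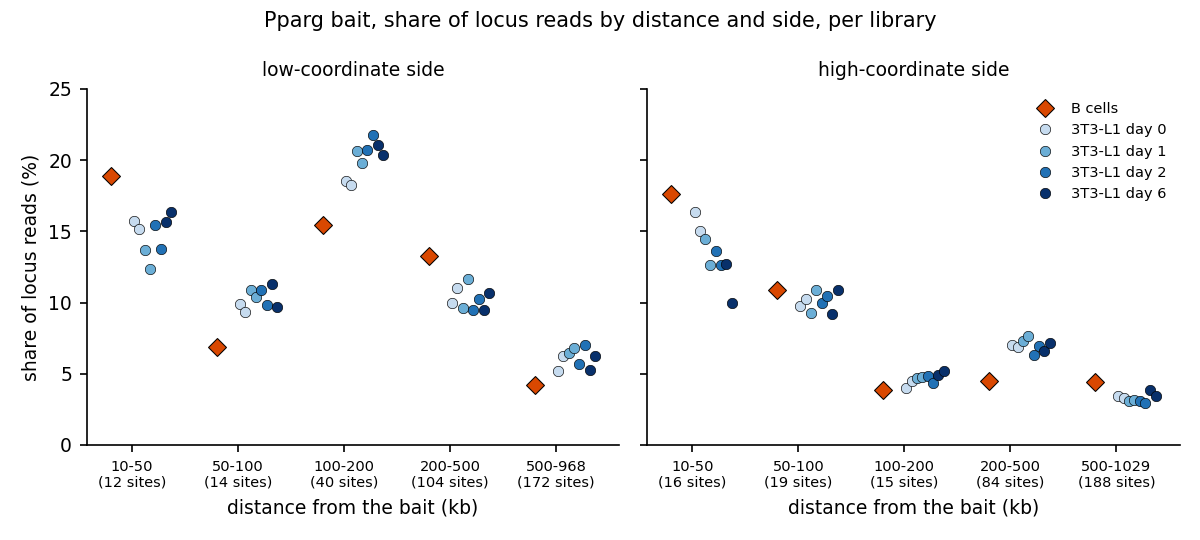
Share of locus reads (vertical axis, percent, from 0) in bins of distance from the Pparg bait (horizontal axis, kb, with the number of HindIII sites in each bin), on the low-coordinate side (left panel) and the high-coordinate side (right panel). Diamonds are the B cell library and circles the 8 3T3-L1 libraries, shaded by day. The B cell share is above the circles within 50 kb on both sides, at 18.9% and 17.6%. Below the bait it is beneath them from 50 to 100 kb, at 6.89%, and from 100 to 200 kb, at 15.5%.

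The B cell library, from a line outside the adipocyte lineage, was compared with the 3T3-L1 libraries. A larger share of its reads lay next to the bait, near 300 kb below it and at both ends of the locus, and a smaller share at the shoulder at 115.2 Mb and in stretches about 500 kb out on each side. Within 100 kb of the bait lay 54.3% of locus reads in B cells (95% Wilson interval 53.8 to 54.7), above all 8 3T3-L1 libraries, which averaged 48.6% ± 1.91 (SD, n = 8). The difference was 5.70 percentage points (two-sided exact permutation test, p = 0.222, the smallest that 1 against 8 libraries allows). This difference rested on the sites with most reads: with the reads of a site capped at the 95th percentile it was 0.282 percentage points (exact permutation p = 0.889), and with a zone of 20 kb it was 2.08 (exact permutation p = 0.444). The excess lay within 50 kb, at 18.9% below the bait and 17.6% above it, each above all 8 3T3-L1 libraries. From 50 to 100 kb below the bait the B cell share was 6.89%, beneath the 3T3-L1 range of 9.37% to 11.3%. From 50 to 100 kb above the bait it was 10.88%, inside the range of 9.19% to 10.91%.

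Per 50-kb window, 38 of the 40 windows could be tested with edgeR, on the locus-total scale and with p-values adjusted over all 2478 tested windows of chromosome 6. Of the 38, 10 passed an adjusted p of 0.05, 5 higher and 5 lower in B cells. Over all tested windows of chromosome 6, 2.38% passed, 2.18% as higher and 0.202% as lower. Depth differed between them: the median tested window held 185 to 10400 reads, depending on the library, in the locus and 1 to 101 elsewhere on chromosome 6. At an unadjusted p under 0.05, 18 of the 38 stood out, against 17.9% of all tested windows. DESeq2 on the same scale called 12 of the 38, 4 higher and 8 lower, and 1.57% of all tested windows. The median log2 difference was -0.07 over the 38 windows and 0.99 over all tested windows. The B cell share was above all 8 3T3-L1 libraries in 12 of the 38 windows, or 31.6%, near the 30.1% of all tested windows. It was below all 8 in 17 of the 38, or 44.7%, while 4.04% of all tested windows were. These 2 percentages are not on equal terms. Elsewhere on chromosome 6 the median tested window held 1 read in day 1 replicate 2 and in day 6 replicate 2. A B cell share below all 8 had little room to occur there.

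The window that holds the bait, at 115.35 to 115.4 Mb, was higher in B cells. It took 20.4% of locus reads in B cells and from 11.4% to 16.1% in 3T3-L1 libraries, with a median of 12.8%. The edgeR log2 difference was 0.63 ± 0.11 (SE; adjusted p = 1.04e-05). Its 9 sites were read in both lines. The 7 sites of the window other than the 2 leading ones named above sites of the window took 6.44% in B cells against a 3T3-L1 mean of 5.53% ± 1.44 (SD, n = 8), a range of 3.82% to 8.59% that includes the B cell value. With the reads of a site capped, the log2 difference of the window was 0.14 and did not pass. With a zone of 20 kb it was 0.60 and did not pass (edgeR adjusted p = 0.289).

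About 300 kb below the bait, the adjoining windows that begin at 115.05 and 115.1 Mb were higher in B cells. The first took 3.10% in B cells and from 0.959% to 1.91% in 3T3-L1 libraries, with a median of 1.49%, so the groups did not overlap. Its edgeR log2 difference was 1.02 ± 0.24 (SE; adjusted p = 0.00366). The second took 4.70% in B cells and from 1.92% to 3.63% in 3T3-L1 libraries (edgeR log2 difference 0.67 ± 0.20, SE; adjusted p = 0.0372). The number of sites with a read hardly differed in the window at 115.05 Mb, with 17 of 19 in B cells and a mean of 17.4 in 3T3-L1 libraries. At the outer ends of the locus, the window at 114.4 to 114.45 Mb took 0.961% in B cells and from 0.190% to 0.442% in 3T3-L1 libraries, with a median of 0.268% (edgeR log2 difference 1.72 ± 0.42, SE; adjusted p = 0.00697). The window at 116.35 to 116.4 Mb took 0.583% in B cells and from 0.0870% to 0.214% in 3T3-L1 libraries, with a median of 0.145% (edgeR log2 difference 1.95 ± 0.54, SE; adjusted p = 0.0270). Both end windows were above all 8 3T3-L1 libraries, and they rested on 545 and 331 reads in the B cell library.

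The lower windows began with the shoulder at 115.2 to 115.25 Mb. It took 7.66% in B cells and from 10.9% to 12.9% in 3T3-L1 libraries, with a median of 11.9% (edgeR log2 difference -0.62 ± 0.14, SE; adjusted p = 0.00125). With the reads of a site capped the difference was -0.27 and did not pass (edgeR adjusted p = 0.225). All 19 of its sites were read in B cells. About 500 kb below the bait, the window at 114.85 to 114.9 Mb took 0.268% in B cells and from 0.636% to 1.34% in 3T3-L1 libraries, with a median of 0.858% (edgeR log2 difference -1.76 ± 0.41, SE; adjusted p = 0.00366). Near it the window at 114.75 to 114.8 Mb took 0.449% in B cells and from 0.745% to 1.90% in 3T3-L1 libraries (edgeR log2 difference -1.41 ± 0.35, SE; adjusted p = 0.00821). The groups did not overlap in any of these windows.

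On the high-coordinate side, the window at 115.8 to 115.85 Mb took 0.261% in B cells and from 0.591% to 1.34% in 3T3-L1 libraries, with a median of 0.881% (edgeR log2 difference -1.73 ± 0.42, SE; adjusted p = 0.00528). Of its sites, 11 of 22 had a read in B cells and a mean of 14.6 in 3T3-L1 libraries. The window at 114.75 Mb had 14 of 20 in B cells and a mean of 17.6 in 3T3-L1 libraries. These counts were not adjusted for depth, which was 56731 locus reads in B cells and 17827 to 1159566 in 3T3-L1 libraries. When edgeR was run on such counts, the log2 differences were -0.38 at 115.8 Mb and -0.30 at 114.75 Mb, and neither passed. The window at 115.6 to 115.65 Mb took 1.36% in B cells and from 2.27% to 3.22% in 3T3-L1 libraries (edgeR log2 difference -0.94 ± 0.25, SE; adjusted p = 0.0185). That window and the one at 115.1 Mb fell outside the rule for naming windows and are named because each completes a count of 5. Every B cell value comes from 1 library, which is assumed to vary like the 3T3-L1 libraries.

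The calls depended on the scale. On the total of all chromosome 6 windows, 9 windows passed and all were lower in B cells. With TMM scaling none passed, in the locus or among all 2468 tested windows of chromosome 6, and the log2 difference of the bait window was -0.19. The TMM factor was 1.35 for the B cell library and 0.750 and 1.46 for the 2 day 6 libraries. From the locus-total scale to TMM, the log2 differences of B cells shifted by a median of -0.84 over windows of chromosome 6. Counts of captured sites in place of reads gave no call in the locus, but within 100 kb nearly every site was captured in both lines. Without the day 0 replicate 1 library 2 windows passed, and without the day 0 replicate 2 library 5 did.

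**Figure D3:**
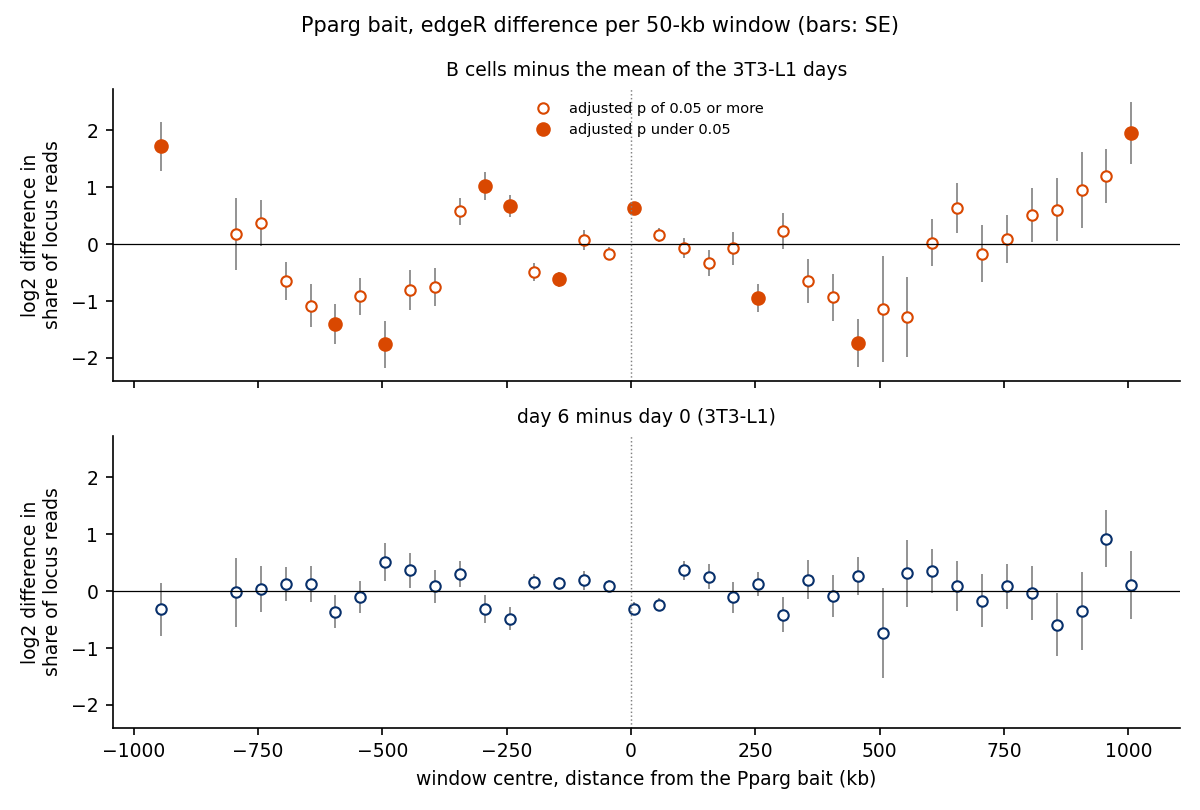
Log2 difference in the share of locus reads per 50-kb window (vertical axis, edgeR, bars are SE) against the distance of the window's centre from the Pparg bait (horizontal axis, kb), for B cells minus the mean of the 3T3-L1 days (top) and day 6 minus day 0 (bottom). Filled points passed an adjusted p of 0.05. The top panel has 10 filled points, 5 on each side of 0, and the bottom panel has none.

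Days 1, 2 and 6 were each set against day 0 to follow the locus through adipogenesis, and these 3 comparisons share the day 0 libraries. No locus window passed on any day in edgeR. DESeq2 called 0 in the locus as well, with 0.242%, 0.0404% and 1.78% of all tested windows on days 1, 2 and 6. Over all tested windows of chromosome 6, edgeR called 0% on days 1 and 2 and 0.0404% on day 6. At an unadjusted p under 0.05, 4 of the 38 locus windows stood out on each day, while 5.29%, 5.85% and 8.51% of all tested windows did on days 1, 2 and 6. The median log2 difference over the 38 windows was -0.01 on day 1, -0.09 on day 2 and 0.08 on day 6.

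The window with the smallest p on the lower side was the bait window at 115.35 to 115.4 Mb on each day. It took 16.1% and 14.8% of locus reads on day 0, 12.4% and 11.4% on day 1, 13.1% and 12.9% on day 2, and 12.2% and 12.8% on day 6. All 6 later libraries were below both day 0 libraries, and the differences did not pass. The edgeR log2 difference was -0.38 ± 0.11 on day 1 (SE; adjusted p = 0.325), -0.25 ± 0.11 on day 2 (SE; adjusted p = 0.821) and -0.31 ± 0.11 on day 6 (SE; adjusted p = 0.439). The smallest p on the higher side was at 115.45 to 115.5 Mb on days 2 and 6, with 3.85% and 4.51% on day 0, 4.98% and 6.12% on day 2, and 4.69% and 6.06% on day 6. Its edgeR log2 difference was 0.41 ± 0.16 on day 2 (SE; adjusted p = 0.821) and 0.36 ± 0.16 on day 6 (SE; adjusted p = 0.568). On day 1 the window at 115.55 to 115.6 Mb came first, with 1.68% and 2.00% on day 1 and 1.27% and 1.16% on day 0 (edgeR log2 difference 0.60 ± 0.27, SE; adjusted p = 0.913).

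The share on the low-coordinate side went up with day. It was 59.4% and 60.1% on day 0, 61.3% and 60.9% on day 1, 62.2% and 62.7% on day 2, and 62.8% and 63.4% on day 6, so that no 2 days overlapped. Day 1 was 1.36, day 2 was 2.69 and day 6 was 3.33 percentage points above day 0 (two-sided exact permutation test, p = 0.333 each, the smallest that 2 against 2 libraries allows). Across the 8 libraries, Pearson's r with day was 0.848 (exact permutation p = 0.00754, adjusted over 2 relations 0.0151) and Spearman's rho was 0.976 (exact permutation p = 0.000794, adjusted 0.00159). This relation was looked at after the values had been seen. Without the 2 day 6 libraries r was 0.972 (n = 6), and it was 0.829 within replicate 1 and 0.883 within replicate 2 (4 libraries each). By Pearson's r it no longer passed with captured sites (r = 0.221, exact permutation p = 0.602), with reads capped (r = 0.322, exact permutation p = 0.436) or with a zone of 20 kb (r = 0.602, exact permutation p = 0.130). Spearman's rho was 0.293 with captured sites (exact permutation p = 0.513), 0.586 with reads capped (exact permutation p = 0.153) and 0.830 with the zone of 20 kb (exact permutation p = 0.0198).

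The bait site's share of all reads also differed between days, at 9.14% and 5.83% on day 0, 11.6% and 29.2% on day 1, 7.72% and 20.7% on day 2, and 52.0% and 61.4% on day 6. Its part in the side difference was not tested.

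By distance, the lower share of the high-coordinate side lay within 50 kb of the bait. That bin took 15.7% ± 0.973 on day 0, 13.5% ± 1.28 on day 1, 13.1% ± 0.735 on day 2 and 11.3% ± 1.95 on day 6 (SD, n = 2 each). The same distances on the low-coordinate side took 15.4% ± 0.392 on day 0 and 13.0% ± 0.966 on day 1 (SD, n = 2 each). They took 14.6% ± 1.17 on day 2 and 16.0% ± 0.454 on day 6 (SD, n = 2 each), so the mean on day 1 was lower on both sides. The site at chr6:115386020-115386025, 16.8 kb above the bait, was singled out after its values were seen. It took 3.57% and 2.61% on day 0, 2.35% and 1.54% on day 1, 2.07% and 1.31% on day 2, and 1.85% and 0.701% on day 6, and 1.93% in B cells. Both day 0 libraries were above the 6 later ones. With that site left out, r of the low-coordinate share with day was 0.843 (exact permutation p = 0.00397). On the low-coordinate side the bin from 100 to 200 kb took 18.4% ± 0.193 on day 0, 20.2% ± 0.597 on day 1, 21.3% ± 0.757 on day 2 and 20.7% ± 0.495 on day 6 (SD, n = 2 each), and there too day 0 lay apart from the later days.

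Within 100 kb of the bait, both day 0 libraries were above those of days 1 and 6 and overlapped with day 2, and the later days overlapped with each other. The share was 51.8% and 49.8% on day 0, 48.3% and 46.3% on day 1, 49.9% and 46.7% on day 2, and 48.9% and 46.9% on day 6. Differences from day 0 were -3.50, -2.47 and -2.93 percentage points on days 1, 2 and 6 (two-sided exact permutation test, p = 0.333, 0.667 and 0.333, where 0.333 is the smallest possible). The relation with day had r = -0.368 (exact permutation p = 0.352). On each day replicate 1, the deeper library, had the higher value.

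**Figure D4:**
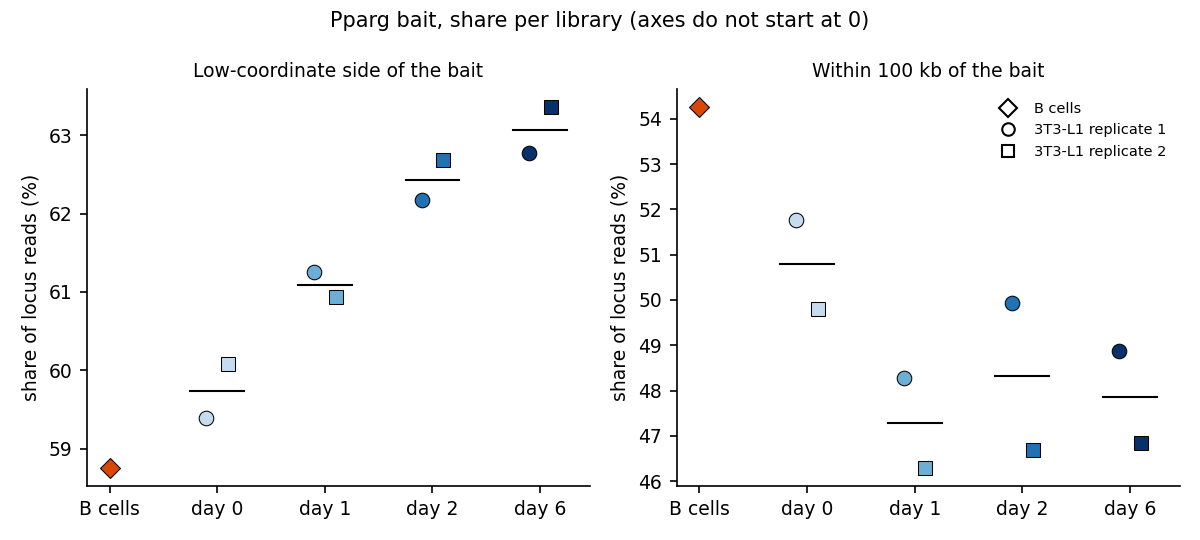
Share of locus reads (vertical axis, percent, not from 0) on the low-coordinate side of the Pparg bait (left panel) and within 100 kb of it (right panel) in B cells and on days 0, 1, 2 and 6 of 3T3-L1 differentiation (horizontal axis). Diamonds are the B cell library, circles replicate 1, squares replicate 2, and lines the mean of 2 libraries. On the left the pairs of each day stand one above the other, from 59.4% to 63.4%, and B cells are lowest at 58.8%. On the right B cells are highest at 54.3%, day 0 is above days 1 and 6 and overlaps with day 2, and days 1, 2 and 6 overlap.

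Replicates of a day agreed in the order of sites, with Spearman correlations over the 664 sites of 0.903 on day 0, 0.888 on day 1, 0.892 on day 2 and 0.823 on day 6. The B cell library and the 3T3-L1 mean had 0.906 over sites. Over the 40 windows the replicate correlations were 0.949 to 0.984 and that of B cells with the 3T3-L1 mean was 0.872. The points of each correlation share their distance from the bait and the properties of their sites.

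The same 664 sites were also captured by the baits at Lpin1 on chromosome 12, whose product lipin 1 makes diacylglycerol from phosphatidate, and at Ifng on chromosome 10, which encodes interferon gamma. Contacts between chromosomes were sparse, so a site counted once if it had at least 1 read. A multiple is the captured share of the locus over the captured share of all chromosomes other than chromosome 6 and the bait's own. The Lpin1 bait captured 30 of the 664 sites in B cells and 6 to 67 in 3T3-L1 libraries. Its multiple was 1.39 in B cells and 1.41 to 3.22 in 3T3-L1 libraries, with a mean of 2.27 ± 0.582 (SD, n = 8). The B cell value was below all 8, the lowest of which was 1.41. It was 0.884 below their mean (two-sided exact permutation test, p = 0.222, the smallest possible). By day, the multiples of the Lpin1 bait were 2.32 and 2.01 on day 0, 2.62 and 1.41 on day 1, 2.73 and 1.74 on day 2, and 3.22 and 2.09 on day 6. On days 1, 2 and 6 the replicates were farther apart than any 2 day means were. The day 6 difference of 0.495 from day 0 had an exact permutation p of 0.667 and turned to -0.0713 without day 6 replicate 1.

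The Ifng bait captured 17 of the sites in B cells and 13 to 60 in 3T3-L1 libraries. Its multiple was 1.29 in B cells and 0.770 to 1.31 in 3T3-L1 libraries, with a mean of 0.983 ± 0.162 (SD, n = 8), and the B cell value was inside the range (two-sided exact permutation test, p = 0.444). It was above all 8 by reads, at 1.72 against at most 1.15, with at least 2 reads a site, at 1.75 against at most 1.28, and with reads thinned, at 1.42 against at most 1.22 (exact permutation p = 0.222 each, the smallest possible). The day 6 difference from day 0 was 0.107 (exact permutation p = 0.667) and turned to -0.0299 without day 0 replicate 2. Relative to the rest of chromosome 6, the locus had a multiple of 1.23 in B cells against a 3T3-L1 mean of 1.56 ± 0.402 (SD, n = 8) for Lpin1, and 0.798 in B cells against a 3T3-L1 mean of 0.491 ± 0.0709 (SD, n = 8) for Ifng, there too above all 8 (exact permutation p = 0.222). Among 74 tiles of 2 Mb on chromosome 6, the locus ranked 13 for Lpin1, where the median tile had 1.45, and 68 for Ifng, where the median tile had 1.63.

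Few single sites recurred between chromosomes. Of the 664 sites, 487 were captured in none of the 9 Lpin1 libraries and 524 in none of the 9 Ifng libraries. No site was captured in more than 5 Lpin1 libraries, which 1 site was, or in more than 6 Ifng libraries, which 2 sites were. In all, 54 sites were read by each of the 3 baits in at least 1 library.

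**Figure D5:**
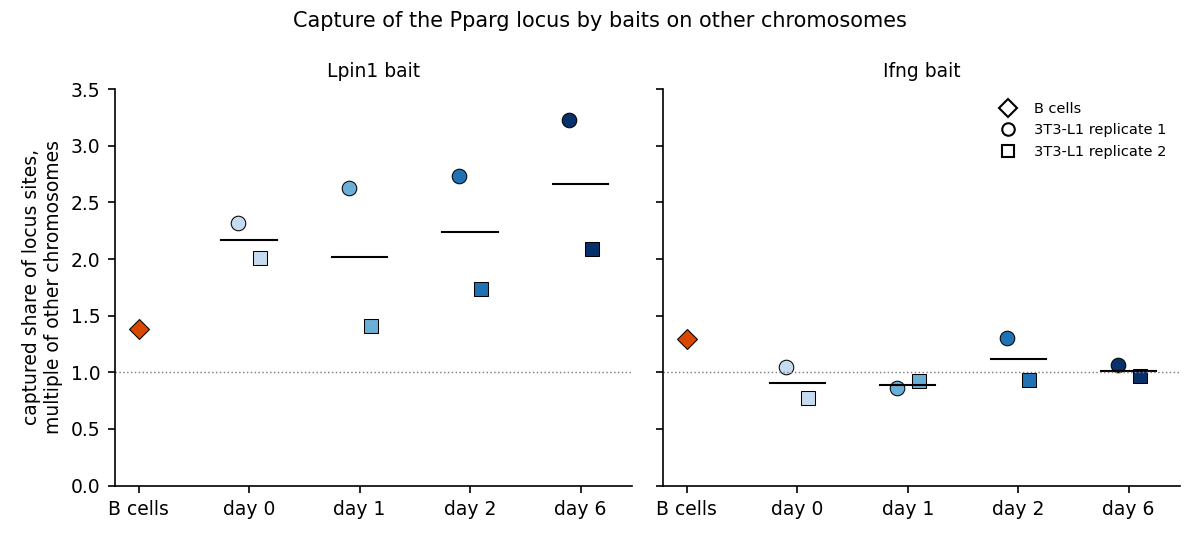
Captured share of the 664 Pparg locus sites as a multiple of the captured share of other chromosomes (vertical axis, from 0) for the Lpin1 bait (left panel) and the Ifng bait (right panel), in B cells and on days 0, 1, 2 and 6 of 3T3-L1 differentiation (horizontal axis). Diamonds are the B cell library, circles replicate 1, squares replicate 2, lines the mean of 2 libraries and the dotted line a multiple of 1. All Lpin1 points are above 1, with B cells lowest at 1.39, and the Ifng points lie around 1.

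The distribution of reads around Pparg was set against that around the other 2 baits, each over the sites within 1 Mb of its own bait and outside 10 kb. For 3T3-L1 libraries the share within 100 kb was 48.5% ± 1.94 (SD, n = 8) at Pparg, 37.2% ± 5.34 (SD, n = 8) at Lpin1 and 45.6% ± 1.30 (SD, n = 8) at Ifng. Pparg was higher than Lpin1 by 11.3 percentage points (two-sided exact permutation test, p = 0.000155, the smallest possible, adjusted over 2 comparisons 0.000311). It was higher than Ifng by 2.88 percentage points (two-sided exact permutation test, p = 0.00451, adjusted 0.00451). With the reads of a site capped, the differences were 21.1 percentage points from Lpin1 and 12.0 from Ifng (exact permutation p = 0.000155 each). This comparison was chosen after other values had been seen, and the labels do not say whether the baits were read from the same chromatin. Each bait is 1 locus read in 8 libraries, so the p-values cover the spread among libraries and not among loci. The number of HindIII sites within 100 kb of each bait was not taken into account. In B cells the share was 54.2% at Pparg, 33.5% at Lpin1 and 41.7% at Ifng.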

How the data were processed

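Per the submitters' processing notes, reads were aligned with Bowtie, version not given in the sources used here, to mm9. The authors deposited 27 tables of counts, whole numbers of reads at 823355 HindIII sites, not normalised and with no header, for 15 samples. Each 3T3-L1 sample has 2 tables, numbered in the deposited names, and each B cell sample has 1. Whether PCR duplicates were removed is not stated.

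Member sites and lists were chosen with earlier results of these data known. Reads were summed over 50-kb windows of chromosome 6 outside 10 kb from the bait. The test for windows passing filterByExpr was that of edgeR 4.0.16 under R 4.3.3 (robust quasi-likelihood, 5 groups in 1 fit, the 4 days averaged for the contrast with B cells). The library size was set to the reads on the member sites, without TMM. Adjustment was by Benjamini-Hochberg over all tested windows of chromosome 6 within a contrast, with a threshold of 0.05. The fit's prior degrees of freedom were infinite, so each window's spread came from the trend over windows, not from its own libraries. A simulation with known changes was used to test the fit.

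Single values per library were compared with exact permutation tests that double the smaller tail. A site's share per library, distance slopes and Wilson intervals at 95% were computed in Python 3.11.15 with SciPy 1.17.1. For the other baits, 1 read sufficed for a site to count as captured.

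Up to 4 windows per direction and contrast were named, by smallest p among those passing whose groups did not overlap, or else the window with the smallest p, named as not passing. The 5 highest windows over 100 kb away, the windows within 100 kb and the 5 highest sites over 50 kb away were also named. Alternatives were TMM, DESeq2 1.42.0 with the locus totals as size factors, no filter, a replicate block, windows of 25 and 100 kb, captured sites, reads capped at the 95th percentile, a zone of 20 kb, at least 2 reads per captured site, thinning, and leaving out each library. Scaling by the chromosome 6 total, the relation with day, leaving out 1 site and the comparison of the baits' own loci were added after the data were seen. RefSeq tables of GRCm38.p6 gave gene order and promoter sequences.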

Additional observations from a re-analysis of the deposited data

Results flagged for a closer look

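Outliers were looked for in 27 sets of 8 3T3-L1 values, and 2 windows had 1 library apart from the other 7 by Dixon's criterion. Chance gives such a result in about 1 in 20 sets. In the window at 115.8 to 115.85 Mb, day 6 replicate 2 took 1.34% of locus reads and the other 7 libraries took 0.591% to 0.915%. That library had the fewest locus reads of all, 17827. The window is 1 of the 5 called lower in B cells, whose value of 0.261% was below all 8. In the window at 115.25 to 115.3 Mb, day 0 replicate 2 took 4.21% and the other 7 took 4.89% to 5.44%.

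The share of reads within 100 kb moved in opposite directions at 2 baits when B cells were set against 3T3-L1 cells, over the sites within 1 Mb of each bait. At Pparg the B cell library was 5.65 percentage points above the 3T3-L1 mean and above all 8 libraries. At Ifng it was -3.97 percentage points from the mean and below all 8. The difference between the baits was not tested. With reads capped at the 95th percentile the values were 0.296 at Pparg and -0.958 at Ifng.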

How the results depend on the processing

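Over all results and settings, 372 of the alternative values counted as the same, 35 no longer passed, 1 passed newly, 13 had the other sign and 6 counts moved by over 1.5 times. A value with a p was the same if it kept its sign and side of the threshold. Without a p the sign alone decided, and a count could move by up to 1.5 times. Permutation tests between 2 days, or of B cells against 3T3-L1, could not pass in any setting, so many of the 372 had no threshold to cross. The 10 windows called between B cells and 3T3-L1 were 0 under TMM scaling and 0 with captured sites, and 2 to 11 with 1 library left out, lowest without day 0 replicate 1. DESeq2 called 12 and scaling to the chromosome 6 total called 9. For the days the count was 0 with any 1 library left out, and it became 1 on day 6 with windows of 25 kb.

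With captured sites in place of reads, signs turned for the share within 100 kb, whose differences were 0.613, 0.530 and 1.26 percentage points on days 1, 2 and 6, with -0.339 for B cells and r = 0.575 with day. They also turned for the log2 difference of the window at 115.35 Mb, at 0.0897, 0.0170 and 0.204 on days 1, 2 and 6, and for B cells at 115.05 Mb (-0.00579) and 115.2 Mb (0.0323). Within 100 kb nearly all sites were captured in both lines, at 100% per bin in B cells and at least 98.7% in 3T3-L1 means. Captured sites could therefore hardly follow the read shares there. TMM turned the B cell difference at 115.35 Mb to -0.19. The relation of the low-coordinate share with day weakened to r = 0.221 with captured sites, 0.322 with capped reads and 0.602 with a zone of 20 kb. These causes were not tested.

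With 1 library left out, the low-coordinate differences ran from 1.01 to 1.70 on day 1, 2.35 to 3.03 on day 2, 2.99 to 3.67 on day 6 and -3.13 to -2.57 in B cells. Those within 100 kb ran from -4.49 to -2.50, -4.10 to -0.842, -3.93 to -1.92 and 5.38 to 6.16. The Lpin1 day 6 difference ran from -0.0713 to 1.06 and that of Ifng from -0.0299 to 0.245. In B cells the Lpin1 difference ran from -1.01 to -0.747 and the Ifng difference from 0.280 to 0.357.

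The replicate numbers were not shown to pair the libraries: deviations of the replicates correlated between days at 0.0101 to 0.520 over 38 windows. With the replicate number as a block, the day 1 count was 1 (115.35 Mb, log2 difference -0.38, edgeR adjusted p = 0.00153), the other days stayed at 0 and the B cell count was 14. The shallowest library had a median of 185 reads per locus window.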
